A study of Mus musculus with 16 samples.

Results

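The replication-dependent histone genes encode the core histones H2A, H2B, H3 and H4 and the linker histone H1 that package newly made DNA. They were taken as every gene whose symbol begins with Hist1h, Hist2h, Hist3h or Hist4h, which gave 67 genes among the 31053 genes counted in the lung and mesenteric lymph node (MLN) libraries and among the 32285 genes counted in the mediastinal lymph node (medLN) and MLN libraries. Of these 67 genes, 6 encode H1, 18 encode H2A, 18 encode H2B, 12 encode H3 and 13 encode H4. At least 1 UMI (unique molecular identifier, which marks 1 captured molecule) was found for 65 of them, and Hist1h2aa and Hist1h2ba, both known as testis forms, had none. A further testis form, Hist1h1t, had 11 UMIs, and 10 of the 67 genes had fewer than 100 UMIs in all cells together.

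The libraries came from 4get mice on a C57BL/6 background, a reporter strain in which eGFP is expressed with the Il4 gene, examined 10 days after subcutaneous injection of 500 infective Nippostrongylus brasiliensis larvae. In the first run, CD4+ IL-4eGFP+ cells were sorted from the perfused lung and the MLN of 2 female mice aged 13 weeks, and each organ of each mouse gave 1 library. In the second run, CD4+ IL-4eGFP+ and CD4+ IL-4eGFP- cells were sorted from the medLN and MLN of 2 mice aged 10 weeks, tagged by organ and mouse with hashtag antibodies and pooled into 1 library per sort gate. Every mouse was infected and carried the reporter, the lung suspensions still held some cells from the blood vessels, and eGFP marks cells that have transcribed Il4 whether or not they secrete IL-4. The p-values between organs measure the spread between 2 mice a group, the same 2 mice in both organs, with mouse not in the model. Those between the sort gates rest on 8 samples, 2 organs of the same 2 mice in each gate, with organ but not mouse in the model. Tests between classes of cells paired 2 sums of the same sample and also rest on 2 mice a run. In both, samples of the same mouse were treated as independent, so these p-values do not measure the spread between mice alone. Samples are named below by organ and mouse, and in the second run also by gate.

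Histone genes of this kind are transcribed in S phase, when DNA is copied. Their mRNAs are known for ending in a conserved stem-loop, bound by the stem-loop binding protein SLBP, in place of a poly(A) tail. Several members, Hist1h1c, Hist1h2bc and Hist2h2be among them, are also known to make polyadenylated transcripts in cells that do not divide. The libraries were primed on poly(A), so the counts below describe the part of the histone mRNA that such a primer can capture and not the whole pool.

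Most members lie in 1 cluster: 54 of the 67 genes were on chr13:21715763-23934851, 10 on chr3:96219865-96270132, 2 on chr11:58948920-58956830 and Hist4h4 on chr6:136801553-136804415 (GRCm38). The stem-loop was searched as a 16-letter pattern in the 300 bases after each stop codon. It was matched exactly in 65 of the 67 genes, at 21 to 58 bases after the stop codon with a median of 30. Of these 65, 41 shared the letters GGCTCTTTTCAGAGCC, 9 had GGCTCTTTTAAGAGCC and 8 had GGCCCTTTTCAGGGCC. Hist1h2an differed from the pattern at 1 letter and Hist2h2be had no match. The stem-loops of the members to which the results below return are shown from the GRCm38 genome with the 16 letters in capitals, whose coordinates are given, and with 5 bases on either side.
Hist1h2ap, chr13:21833029-21833044, minus strand: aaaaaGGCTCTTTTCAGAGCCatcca
Hist1h1b, chr13:21779837-21779852, minus strand: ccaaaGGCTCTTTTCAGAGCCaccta
Hist1h4d, chr13:23581950-23581965, plus strand: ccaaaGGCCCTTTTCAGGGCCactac
Hist1h2an, chr13:21786778-21786793, minus strand: acaaaGGCTCTTTTCAGAGCTaacac

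The promoters of 62 of the 67 members were found in the RefSeq table of GRCm38.p6, which gives 250 bases before and 50 bases after each gene's start. Letters known from histone promoters were counted on both strands and set beside all 27025 promoters of the table. CCAAT was present in 53 of 62 members (85.5%, against 37.92% of all promoters), in all H1, H2A, H2B and H3 promoters and in 3 of 12 H4 promoters. TATAAA was present in 35 of 62 (56.5%, against 14.16%). The octamer ATTTGCAT, known from H2B promoters, was present in 13 of 62 (against 1.75%), of which 7 were H2A and 6 were H2B promoters. AAACACA, known from H1 promoters, was present in 9 of 62 and in 5 of the 6 H1 promoters (14.5% of all members, against 7.14%). The letters TTTCGCGC or TTTGGCGC of an E2F site were present in 9 of 62, 5 H2A and 4 H2B promoters (14.5%, against 0.83%). H2A and H2B genes often stand head to head, and 10 such pairs shared 220 to 279 bases of this window, so a motif there is counted for both genes. The Hist1h1b, Hist1h2bg and Hist1h4d promoters are shown as an H1, an H2B and an H4 example, with these motifs in capitals. Hist1h4d is among the 3 of 12 H4 promoters with CCAAT and so is not typical of its type there. Hist1h2bg shares 279 of its bases with the window of Hist1h2ae. A match is a description of the letters and was not tested for binding.
Hist1h1b, chr13:21780576-21780875, minus strand: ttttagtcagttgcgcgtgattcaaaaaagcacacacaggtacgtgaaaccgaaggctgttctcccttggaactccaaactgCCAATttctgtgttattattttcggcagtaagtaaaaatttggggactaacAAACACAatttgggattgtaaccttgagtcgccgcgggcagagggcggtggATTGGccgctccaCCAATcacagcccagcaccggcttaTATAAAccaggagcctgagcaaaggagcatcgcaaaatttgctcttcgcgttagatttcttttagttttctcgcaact
Hist1h2bg, chr13:23571150-23571449, plus strand: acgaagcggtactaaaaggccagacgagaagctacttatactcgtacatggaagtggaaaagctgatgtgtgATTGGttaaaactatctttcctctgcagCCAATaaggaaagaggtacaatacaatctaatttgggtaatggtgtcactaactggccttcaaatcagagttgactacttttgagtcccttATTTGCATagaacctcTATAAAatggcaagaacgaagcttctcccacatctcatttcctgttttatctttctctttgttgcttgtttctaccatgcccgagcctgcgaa
Hist1h4d, chr13:23581318-23581617, plus strand: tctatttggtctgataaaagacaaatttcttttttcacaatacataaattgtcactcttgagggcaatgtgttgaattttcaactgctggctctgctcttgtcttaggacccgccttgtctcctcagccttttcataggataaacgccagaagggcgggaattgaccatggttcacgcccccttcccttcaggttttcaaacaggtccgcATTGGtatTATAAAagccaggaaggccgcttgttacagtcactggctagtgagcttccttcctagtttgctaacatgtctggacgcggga

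Many members are nearly identical, which limits how well a read can be given to 1 of them. When each annotated transcript was cut into overlapping stretches of 90 bases, 9 members had no stretch in common with another member, 26 had fewer than 50% of their stretches to themselves and 5 had fewer than 10%. Hist2h2aa2 had none of its own, Hist1h2ap shared 92.4% with Hist1h2ao, and Hist1h2ah shared 85.8% with Hist1h2ad. Of the linker histone genes, Hist1h1a and Hist1h1b had 100.0% of stretches to themselves, Hist1h1d 98.9%, Hist1h1c 94.3% and Hist1h1e 73.8%. Hist1h2be overlaps Hist1h1e, which shares 22.1% of its stretches with it. Values of single members, Hist1h1e among them, are therefore uncertain where another member could share their reads.

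After the filters, the 12 samples held 416 to 2462 cells and 2798232 to 14512767 UMIs each. The CD4 T cell and Th2 markers (Cd3d, Cd3e, Cd3g, Cd4, Gata3 and Il4) summed to between 3073 and 4685 CPM (UMIs scaled to a sample total of 1000000), with all 6 detected in every sample except for Il4, which was at 0 in both MLN IL-4eGFP- samples. The 6 B cell markers summed to 93.4 to 262.6 CPM and the 6 myeloid markers to 5.41 to 82.1 CPM. Of the 15 pairs of libraries, the gate libraries of the second run shared the most barcodes, 147 of 9382 and 10024 cells. The 2 runs used different mice, kits, Cell Ranger versions and gene sets (31053 and 32285 genes). These cannot be told apart, so levels are not compared between the runs by a test.

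The 67 genes held 130388 UMIs in all, 35560 in the first run and 94828 in the second. A UMI marks 1 molecule at its 5′ end, so these counts were not divided by gene length. The 15 members with the most UMIs held 97068 of them (74.4%). They were the H2A genes Hist1h2ap (19001 UMIs), Hist1h2ae (10534), Hist1h2ab (3260), Hist2h2ac (2317), Hist1h2an (2212), Hist1h2ag (1730) and Hist1h2af (1697), the H1 genes Hist1h1e (15244), Hist1h1b (15033), Hist1h1d (7458), Hist1h1c (6546) and Hist1h1a (3388), the H4 genes Hist1h4d (3200) and Hist1h4i (3061) and the H3 gene Hist1h3e (2387). The make-up differed between the runs, which also differed in mice, kits, Cell Ranger versions and gene sets. H2A genes held 61.7% of the histone UMIs in the first run and 27.4% in the second, and H1 genes held 12.5% and 45.6%. Hist1h2ap alone held 44.4% of the histone UMIs in the first run and 3.40% in the second. H2B, H3 and H4 genes held 7.75% to 9.93% in the first run and 8.51% to 9.45% in the second.

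Summed over the 67 genes, the level in all cells was 959, 1666, 1117 and 1458 CPM in Lung 1, Lung 2, MLN 1 and MLN 2. In the second run it was 2255, 2020, 1650 and 1686 CPM in the IL-4eGFP+ cells of medLN 1, medLN 2, MLN 1 and MLN 2, and 704, 773, 573 and 657 CPM in the IL-4eGFP- cells of the same nodes. All 4 IL-4eGFP+ values were above all 4 IL-4eGFP- values, and lung and MLN overlapped in the first run. The level came from few cells. The 5% of cells with the most histone UMIs held 46.3% to 82.9% of them, and the highest single cell, in MLN 1 of the first run, held 790 histone UMIs, while the median cell of a sample held 1 or 2.

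**Figure D1:**
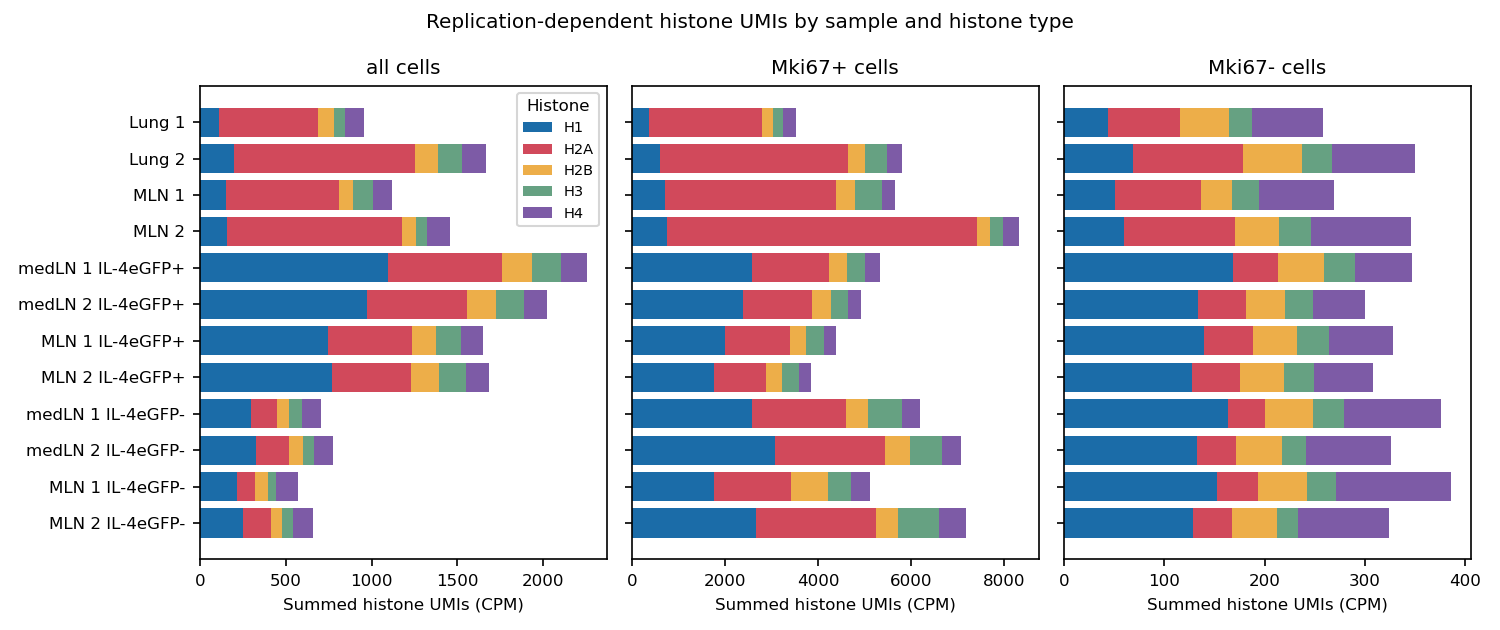
Summed histone UMIs in CPM for the 12 samples in all cells, Mki67+ cells and Mki67- cells, each bar 1 sample divided by histone type. H2A takes the largest share of every bar in the first run and H1 in the second, and the Mki67- bars reach no more than 386 CPM (each panel has its own axis).

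Most histone UMIs were in cells with at least 1 UMI of Mki67, a proliferation marker expressed in cycling cells. These Mki67+ cells were 149, 59, 180 and 50 in Lung 1, Lung 2, MLN 1 and MLN 2, which is 13.8%, 14.2%, 7.31% and 6.63% of the cells. In the second run they were 291, 298, 256 and 326 of the IL-4eGFP+ cells of medLN 1, medLN 2, MLN 1 and MLN 2 (12.9% to 16.3%) and 42, 52, 31 and 41 of the IL-4eGFP- cells (1.38% to 2.49%). With cells thinned to 2000 UMIs, the shares were 2.96% to 8.33% in the first run, 9.45% to 10.7% in IL-4eGFP+ and 0.933% to 2.00% in IL-4eGFP- samples. The thinning left out 8 to 51 cells a sample in the first run, 174 to 263 in IL-4eGFP+ and 191 to 212 in IL-4eGFP- samples. Mki67+ cells held 78.8% to 84.0% of the histone UMIs in the first run, with 13.9% to 24.1% of all UMIs. In the IL-4eGFP+ samples they held 86.6% to 90.7%, with 32.5% to 38.9% of all UMIs, and in the IL-4eGFP- samples 35.2% to 60.6%, with 3.93% to 6.62% of all UMIs. Of the cells with 20 or more histone UMIs, between 95.2% and 100.0% in each sample were Mki67+.

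Within Mki67+ cells the summed level was 3520, 5818, 5661 and 8332 CPM in Lung 1, Lung 2, MLN 1 and MLN 2. It was 5326, 4927, 4390 and 3851 CPM in the IL-4eGFP+ samples and 6192, 7072, 5123 and 7179 CPM in the IL-4eGFP- samples, in the order medLN 1, medLN 2, MLN 1 and MLN 2. In Mki67- cells every sample lay between 258 and 386 CPM, 12.5 to 24.1 times below its own Mki67+ cells. A histone UMI was found in 85.9% to 93.0% of Mki67+ cells and in 55.2% to 72.7% of Mki67- cells (54.4% to 87.5% and 35.5% to 52.4% after thinning to 2000 UMIs). The median Mki67+ cell held 4 to 16 histone UMIs at a median depth of 7935 to 10855 UMIs, and the median Mki67- cell held 1 at 2945 to 6649 UMIs.

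Nearly every member that could be tested was higher in Mki67+ than in Mki67- cells of the same sample. In the first run 47 of 48 members tested were higher and none was lower (edgeR quasi-likelihood test with Benjamini-Hochberg adjustment over all genes, threshold 0.05, sample as a block). Of all 9122 genes tested, 17.5% were called higher and 17.9% lower. In the second run 53 of 54 members were higher and none lower, where 26.2% of 10220 genes were called higher and 34.2% lower. The median log2 difference of the members was 3.78 in both runs, against -0.07 and -0.11 over all genes. Members read almost only in Mki67+ cells passed the filter on low counts through those cells and had to differ, so these counts do not speak for the members left out of the test.

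The median difference was largest for H2A and smallest for H4 genes in both runs. The median log2 difference was 5.50 and 5.94 for H2A genes in the first and second run, 4.36 and 4.63 for H3, 3.88 and 4.36 for H1, 3.61 and 4.07 for H2B, and 1.71 and 2.09 for H4. These medians include members with few UMIs in Mki67- cells, whose fitted differences depend on the prior count and are not ranked here. The H2A gene Hist1h2ah had 1, 0, 1 and 0 UMIs in the Mki67- cells of Lung 1, Lung 2, MLN 1 and MLN 2, the H2A gene Hist1h2af had 0, 2, 2 and 1, and the H3 gene Hist1h3b had 1, 2, 3 and 0. Hist1h2af was also at 0 UMIs in the Mki67- cells of all 4 IL-4eGFP- samples. The H2A gene Hist1h2ab, with 1, 2, 10 and 1 UMIs there in the first run, had log2 differences of 6.91 (SE 0.25) and 6.44 (SE 0.36). Hist1h1b, with 18, 16, 38 and 1 UMIs, had 6.50 (SE 0.25) and 7.34 (SE 0.38).

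Hist1h1b, a linker histone gene that shares no 90-base stretch with another member, showed the contrast in every sample. Its level in Mki67+ cells was 164, 260, 295 and 369 CPM in Lung 1, Lung 2, MLN 1 and MLN 2, against 2.69, 7.53, 3.11 and 0.259 CPM in Mki67- cells. In IL-4eGFP+ samples it was 971, 900, 802 and 695 CPM against 8.36, 9.39, 12.4 and 10.3 CPM, and in IL-4eGFP- samples 737, 979, 576 and 806 CPM against 1.78, 1.42, 0.645 and 1.20 CPM, in the order medLN 1, medLN 2, MLN 1 and MLN 2. No Mki67- value reached a Mki67+ value. Hist1h2ap, the member with the most UMIs, was at 1970, 3272, 2501 and 5156 CPM against 31.7, 42.8, 42.9 and 58.6 CPM in the first run, and its log2 difference was 6.14 (SE 0.11) there and 6.61 (SE 0.16) in the second.

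A few members differed little between the classes. Hist2h2be, the member without a stem-loop match, had a log2 difference of -0.08 (SE 0.26, adjusted p = 0.80, edgeR) in the second run and was not tested in the first. Hist3h2ba, an H2B gene outside the large cluster, had 0.62 (SE 0.28, adjusted p = 0.090, edgeR) in the first run and was higher by 0.83 (SE 0.25) in the second. Hist1h4m (0.94 and 1.41), Hist1h4c (1.11 and 1.16), Hist2h2aa1 (1.40 and 1.56) and Hist1h2bc (1.44 and 1.84) were higher in both runs by less than the H2A, H3 and H1 medians. The linker histone gene Hist1h1c was at 22.3 and 27.3 CPM in the Mki67- cells of Lung 1 and Lung 2, at 19.2 CPM in those of MLN 2 and lower in MLN 1, and at 40.4 to 67.7 CPM in those of the second run. It had log2 differences of 1.57 and 2.03, the smallest of the 5 H1 genes tested in either run.

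**Figure D2:**
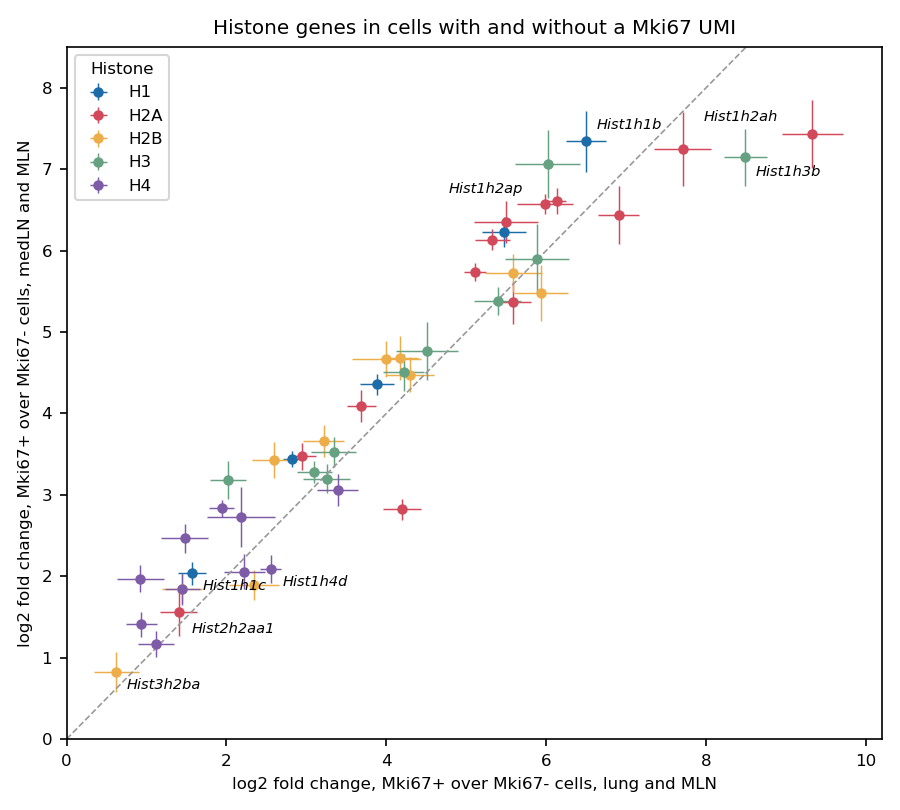
Log2 fold change of Mki67+ over Mki67- cells in the first run (x axis) and second run (y axis) for the 48 members tested in both, coloured by histone type, with bars of 1 SE and a dashed line of equal change. Most H2A genes and Hist1h1b lie at the upper right, and H4 genes, Hist1h1c, Hist2h2aa1 and Hist3h2ba lie at the lower left.

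Members whose annotated transcript runs on past the stem-loop had a smaller median difference than those with a shorter annotated end. In 27 of the 67 genes the GENCODE vM21 annotation extends 100 or more bases beyond it, by 840 bases for Hist1h1c and 770 for Hist1h4d. The median log2 difference of such members was 2.57 (18 members) in the first run and 2.92 (20 members) in the second, against 4.92 (30 members) and 5.29 (33 members) for those with a shorter annotated end. Within the H4 genes of the second run the order was the other way, 2.28 (6 members) against 2.06 (5 members). The limit of 100 bases was set after these values were seen, so they are given without a test. The medians for a shorter annotated end include members with few UMIs in Mki67- cells, whose fitted differences depend on the prior count. Of the members that differed little, Hist1h4m and Hist2h2aa1 run only 3 and 35 bases past the stem-loop. Hist2h2be, without a stem-loop match, was in neither set. The H4 genes made up 16.2% to 29.7% of the histone UMIs in Mki67- cells and 4.25% to 8.09% in Mki67+ cells. A link of this share to the annotated end was not tested.

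IL-4eGFP+ cells of medLN and MLN carried more histone UMIs than IL-4eGFP- cells of the same nodes. With organ in the model, 40 of 55 members tested were higher in IL-4eGFP+ cells and 5 were lower (edgeR), and the median log2 difference was 1.15 against -0.02 over all genes. This contrast was broad, since 31.3% of 11035 genes were called higher and 31.8% lower. Of the cell cycle lists, 38 of 39 S phase genes were higher and 0 lower, and 48 of 50 G2/M genes were higher and 1 lower. Their median log2 differences, 1.46 and 2.23, were above that of the members. Each gate was 1 library, so the gate and the library cannot be told apart. Sums over all cells do not separate more dividing cells from more histone RNA per cell. The share of Mki67+ cells was 12.9% to 16.3% in IL-4eGFP+ and 1.38% to 2.49% in IL-4eGFP- samples. Within Mki67+ cells the summed level was 3851 to 5326 CPM in IL-4eGFP+ against 5123 to 7179 CPM in IL-4eGFP- samples. Within Mki67- cells it was 300 to 347 against 324 to 386 CPM. The part of each in the difference was not tested.

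Of the H1 genes, 4 of 5 were higher, as were 13 of 14 H2A, 10 of 15 H2B and all 10 H3 genes tested. H4 genes were split, with 3 of 11 higher and 3 lower. Hist1h1b was at 377, 340.5, 269 and 277 CPM in IL-4eGFP+ cells of medLN 1, medLN 2, MLN 1 and MLN 2 and at 43.3, 66.1, 23.3 and 40.2 CPM in IL-4eGFP- cells, without overlap, a log2 difference of 2.70 (SE 0.14, adjusted p = 9.5e-09, edgeR). The H2A gene Hist1h2ae was at 238, 203, 178 and 165 CPM against 31.3, 51.2, 28.6 and 33.4 CPM, a log2 difference of 2.25 (SE 0.11). The others among the 10 largest were Hist1h2an (2.42), Hist1h3c (2.31), Hist1h2ab (2.27), Hist1h1a (2.12), Hist1h2bh (2.07), Hist1h3b (2.05), Hist1h2bk (1.96) and Hist1h2bj (1.76). The 5 members lower in IL-4eGFP+ cells were Hist2h2aa1 (-1.12), Hist1h4m (-0.91), Hist1h4c (-0.71), Hist1h2be (-0.59) and Hist1h4d (-0.45). Hist1h4d, for example, was at 37.3, 36.0, 25.7 and 27.7 CPM against 40.1, 35.8, 38.3 and 36.4 CPM, and its groups overlapped.

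Among Mki67+ cells the difference had the opposite sign. No member was higher in IL-4eGFP+ Mki67+ cells and 27 of 50 tested were lower (edgeR), where 4.39% of 8820 genes were called higher and 7.05% lower. The median log2 difference of the members was -0.74 against a value near 0 over all genes, and 48 of the 50 values were below 0. The count was 18 to 29 with any 1 sample left out, the lowest without MLN 2 IL-4eGFP-, and 28 by DESeq2. Lower members were found in every type, 3 of 5 H1, 7 of 13 H2A, 3 of 12 H2B, 8 of 10 H3 and 6 of 10 H4 genes.

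Hist1h2ap was at 178, 190, 156 and 133 CPM in the IL-4eGFP+ Mki67+ cells of medLN 1, medLN 2, MLN 1 and MLN 2 and at 446, 467, 384 and 466 CPM in the IL-4eGFP- ones, a log2 difference of -1.50 (SE 0.09, adjusted p = 1.8e-07, edgeR). Hist2h3b, an H3 gene of the chromosome 3 cluster, was at 32.4, 37.4, 30.7 and 29.3 CPM against 84.6, 76.1, 94.5 and 110 CPM, a log2 difference of -1.54 (SE 0.16). The groups did not overlap for either gene. The other members with the largest differences were Hist1h4j (-1.66), Hist1h3h (-1.58), Hist1h3g (-1.52), Hist1h4m (-1.49), Hist1h2bm (-1.43), Hist1h2af (-1.38), Hist1h3a (-1.35) and Hist1h4h (-1.18). Of these, Hist1h3h, Hist1h2bm, Hist1h2af and Hist1h4h overlapped between the gates and the others did not. Hist1h2bm, for example, was at 31.8, 24.9, 22.7 and 24.2 CPM against 36.6, 82.1, 129 and 31.4 CPM. Hist1h1b did not pass the test (0.05), at 971, 900, 802 and 695 CPM against 737, 979, 576 and 806 CPM, which overlapped.

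The IL-4eGFP- sums came from 31 to 52 cells a sample. Between 10 and 22 cells of each IL-4eGFP- sample held 20 or more histone UMIs, against 92 to 143 in IL-4eGFP+ samples. The highest IL-4eGFP- Mki67+ cell held 395 of 2707 histone UMIs in medLN 1 and 374 of 3532 in medLN 2. In MLN 1 and MLN 2 it held 585 of 1627 and 460 of 2744. What single cells added to the gate result was not tested. The IL-4eGFP- sums also held more B cell marker UMIs, 205 to 515 CPM against 87.8 to 202 CPM in IL-4eGFP+ Mki67+ cells. Of the 4 B cell markers tested, Cd79a and Ighm were lower in IL-4eGFP+ Mki67+ cells by the same test, with log2 differences of -2.48 and -1.59. The CD8 T cell gene Cd8b1 was lower too (-2.12), at 5.32 to 7.01 CPM against 12.6 to 46.0 CPM, as was 1 of 2 epithelial and stromal markers tested (median of both -1.33), whose list summed to 33.5 to 48.3 CPM against 41.9 to 73.2 CPM. The part of these cells in the result was not tested. Cells with a UMI of a B cell marker other than Ighm, or of a myeloid marker, made up 9.62% to 14.1% of the IL-4eGFP+ and 6.45% to 21.4% of the IL-4eGFP- Mki67+ cells. Without those cells, a choice made after seeing the data, 31 members were lower and none was higher. Cells with CD8, epithelial or stromal marker UMIs alone were kept in that count.

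**Figure D3:**
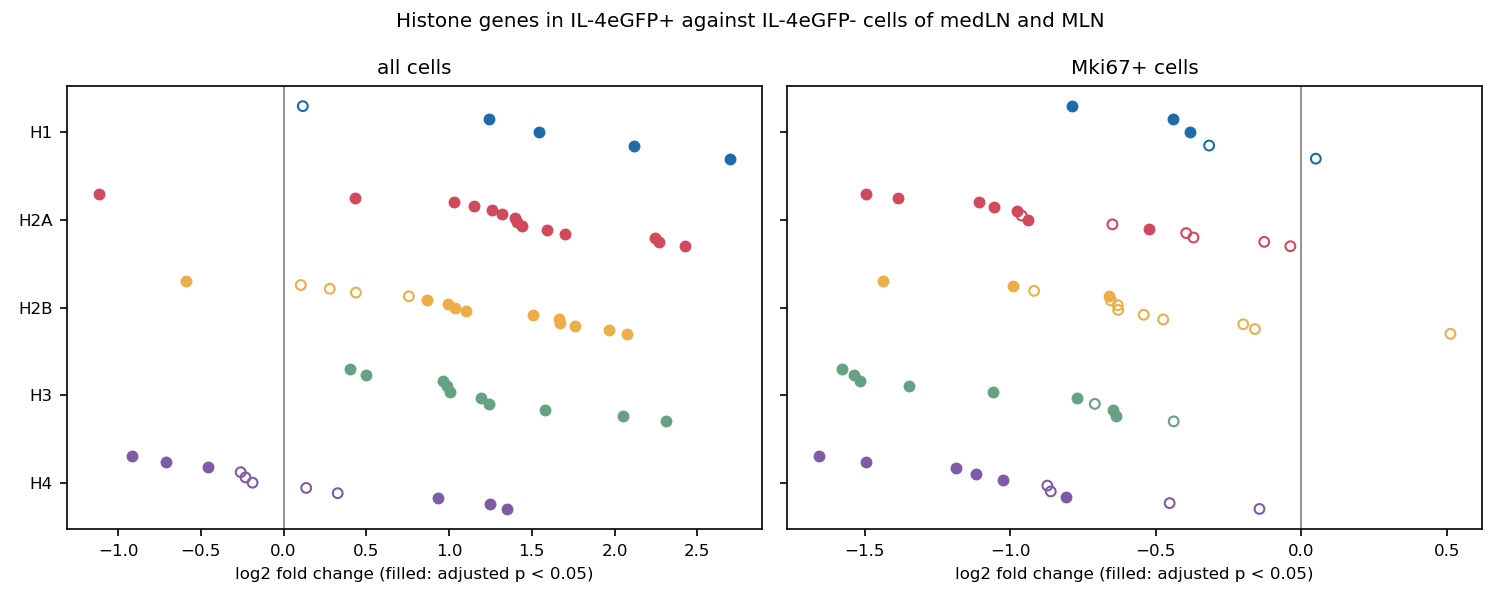
Log2 fold change of IL-4eGFP+ over IL-4eGFP- cells for each member by histone type, in all cells (left) and in Mki67+ cells (right), with filled points for an adjusted p below 0.05. Most points lie above 0 on the left and all but 2 lie below 0 on the right.

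Within IL-4eGFP+ cells, 7 of 55 members tested were higher in the lung-draining medLN than in the MLN over all cells and none was lower (edgeR), and with no filter on low counts only 1 passed, while 0.675% of 11265 genes were called higher and 0.604% lower. They were the H1 genes Hist1h1a (log2 difference 0.77, SE 0.09, adjusted p = 0.012 by edgeR), Hist1h1c (0.49), Hist1h1e (0.46) and Hist1h1b (0.38) and the H2A genes Hist1h2an (0.51), Hist1h2ab (0.48) and Hist1h2ap (0.42). Hist1h1a was at 96.8 and 82.6 CPM in medLN 1 and medLN 2 and at 50.3 and 54.3 CPM in MLN 1 and MLN 2, without overlap. Hist1h1e was at 327 and 307 CPM against 221 and 237 CPM. These calls rested on each of the 4 samples, as the count was 0 without medLN 1, 1 without medLN 2, 4 without MLN 1 and 3 without MLN 2. Mki67 itself was higher in medLN in this test (0.33), as was Top2a, the topoisomerase of dividing cells (0.39). Markers of other cells also moved with the organ, and their part in the result was not tested. The 6 B cell markers summed to 148.5 and 169 CPM in medLN 1 and medLN 2 and to 240 and 222 CPM in MLN 1 and MLN 2, and 1 of the 6, Ighm, was lower in medLN (-0.67). The 6 myeloid markers summed to 58.2 and 30.9 CPM against 82.1 and 25.4 CPM, and 1 of 4 tested, Fcer1g, was lower (-1.57).

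In the Mki67+ cells among them, 4 of 55 members were higher in medLN and none was lower (edgeR), against 0.446% and 0.497% of 9859 genes. All 4 encode H1, namely Hist1h1a (0.72, SE 0.09), Hist1h1c (0.57, SE 0.08), Hist1h1e (0.44, SE 0.05) and Hist1h1b (0.33, SE 0.07), and the fifth H1 gene tested, Hist1h1d, was also above 0. Most members of the other types were above 0 too without passing, 13 of 14 H2A, 11 of 15 H2B, 6 of 10 H3 and 7 of 11 H4 genes. The median log2 difference was 0.44 for H1, 0.29 for H2A and 0.24 for H2B genes, and 0.15 for H3 and 0.04 for H4. It was 0.18 for the 50 G2/M and 0.15 for the 39 S phase list genes, against -0.004 over all genes. Of these lists, 1 G2/M gene was called higher and 0 S phase genes. At an unadjusted p under 0.05 (edgeR), 22 G2/M and 12 S phase genes differed, so a shift toward medLN was not particular to the members. Hist1h1a was at 249 and 216 CPM in the Mki67+ cells of medLN 1 and medLN 2 and at 148 and 137 CPM in those of MLN 1 and MLN 2. Hist1h1e was at 721 and 726 CPM against 545 and 523 CPM, again without overlap. With mouse as a block the count was 8, and it was 1 without medLN 1, 9 without MLN 1 and 2 without MLN 2. Without the cells that held B cell or myeloid marker UMIs it was 3, and Hist1h1b no longer passed (log2 difference 0.28, adjusted p = 0.19, edgeR). Cells with Ighm alone were kept in that count, and Ighm was lower in the medLN Mki67+ cells (-1.11).

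In IL-4eGFP- cells no member passed the test between medLN and MLN (53 tested), where 0.150% of 10683 genes were called higher and 0.0281% lower. At an unadjusted p under 0.05 there were 14 members, DESeq2 called 0, and 3 were higher in medLN with mouse as a block. The count was 6, 2, 1 and 8 without medLN 1, medLN 2, MLN 1 and MLN 2 in turn. Hist1h1a was at 10.3 and 18.3 CPM in medLN 1 and medLN 2 against 9.04 and 18.3 CPM in MLN 1 and MLN 2. The difference of the organ effect between the gates passed the test for none of 58 members (edgeR, 0.0693% of 11537 genes called higher and 0.0867% lower), with 6 members at an unadjusted p under 0.05, and it was not run in DESeq2.

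Between lung and MLN IL-4eGFP+ cells of the first run, 5 of 54 members tested were higher in lung and 4 lower over all cells (edgeR), where 17.0% of 10590 genes were called higher and 14.0% lower, so members were not called more often than genes in general. The members higher in lung were Hist1h2bc (log2 difference 1.39, SE 0.19), Hist2h2aa1 (1.01), Hist1h4k (0.93), Hist1h1c (0.59) and Hist1h4d (0.47). Those lower in lung were the H2A genes Hist1h2ah (-3.20, SE 0.31), Hist1h2ak (-1.07), Hist2h2ac (-0.94) and Hist1h2an (-0.84). Hist1h2bc was at 17.2 and 20.4 CPM in Lung 1 and Lung 2 and at 7.44 and 8.26 CPM in MLN 1 and MLN 2, without overlap. The count was 14 without Lung 2 (3 higher, 11 lower), 4 without MLN 2 and 3 by DESeq2. Without the criterion of a productive TCR, Hist1h2ak changed sign (0.040, adjusted p = 0.97, edgeR). The share of Mki67+ cells was about 14% in lung and about 7% in MLN, and Mki67 was higher in lung by 1.01 on the log2 scale.

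Within Mki67+ cells none of 48 members was higher in lung and 12 were lower (edgeR), where 9.00% of 8258 genes were called higher and 4.02% lower. The median log2 difference of the members was -0.58 against -0.01 over all genes. The summed level overlapped, since Lung 2 (5818 CPM) was above MLN 1 (5661 CPM). Hist1h2ap alone made up 1970 and 3272 CPM of the sums in Lung 1 and Lung 2 and 2501 and 5156 CPM in MLN 1 and MLN 2. The overlap of the sum therefore does not describe the other members together. The sums came from 149, 59, 180 and 50 cells in Lung 1, Lung 2, MLN 1 and MLN 2. The highest single cell held 338 of 6428, 477 of 3919, 790 of 12923 and 739 of 5196 histone UMIs in the same order. What single cells added to the organ result was not tested. The lower members were 4 H1 genes, 6 H2A genes, the H2B gene Hist1h2bj and the H3 gene Hist1h3g, and no H4 gene passed.

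Hist1h2ah differed most, with 9 and 7 UMIs in Lung 1 and Lung 2 against 230 and 71 in MLN 1 and MLN 2, which is 4.93 and 10.4 CPM against 101 and 114 CPM. Its log2 difference was -3.93 (SE 0.31, adjusted p = 8.1e-09, edgeR). Hist1h2ad, with which Hist1h2ah shares most of its sequence, had too few UMIs to be tested here, at 2.74 and 0 CPM in lung and 8.76 and 6.41 CPM in MLN. Hist1h2ak was at 17.0 and 20.8 CPM against 73.6 and 99.4 CPM, a log2 difference of -2.11 (SE 0.26). Hist1h2an was at 40.5 and 56.4 CPM against 145 and 151 CPM, a log2 difference of -1.60 (SE 0.20). It shares 78.0% of its stretches with Hist1h2ah, so the values of these 2 genes are uncertain as separate results. For Hist1h2ah, Hist1h2ak and Hist1h2an both lung samples were far below both MLN samples, an order that being called on these samples favours. Hist1h2ae was at 160 and 229 CPM against 414 and 350 CPM (-0.96, SE 0.16), and Hist1h1b was at 164 and 260 CPM against 295 and 369 CPM (-0.61, SE 0.18). The others were Hist1h3g (-1.56), Hist1h1a (-1.26), Hist2h2ac (-1.23), Hist1h2bj (-1.04), Hist1h2ab (-0.97), Hist1h1d (-0.95) and Hist1h1e (-0.54). Hist1h1d overlapped, at 26.3 and 75.7 CPM in lung and 96.8 and 73.8 CPM in MLN.

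Lung 1 was the lowest sample for all 12 members, and without it 5 members were lower and 2 higher in lung. Without Lung 2 the count was 24, all lower, with mouse as a block 20, all lower, and by DESeq2 4. Markers of other cells moved with the organ in these sums. The 6 B cell markers summed to 72.3 and 93.5 CPM in Lung 1 and Lung 2 and to 179 and 205 CPM in MLN 1 and MLN 2, mostly Ighm, with Ms4a1 at 0 in all 4. The myeloid gene Fcer1g had 20 and 12 UMIs in the lung samples, in 1 cell each, and 0 in MLN. Without the cells that held a UMI of these markers other than Ighm, 12 members were again lower and none was higher, and 2 of the calls above, Hist1h1b (adjusted p = 0.067, edgeR) and Hist1h3g (adjusted p = 0.096, edgeR), were lost.

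**Figure D4:**
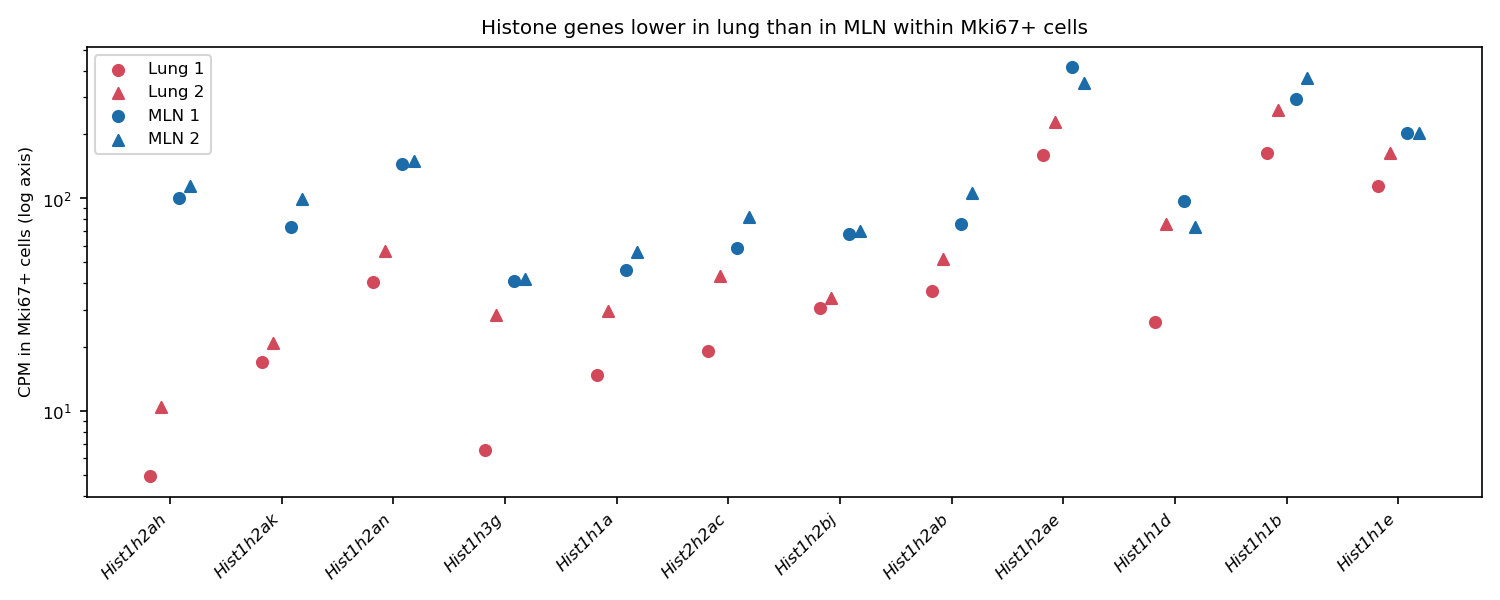
Level in Mki67+ cells, in CPM on a log axis, of the 12 members lower in lung than in MLN, with 1 point per sample. Both lung points lie below both MLN points for every gene but Hist1h1d, where Lung 2 (75.7 CPM) is above MLN 2 (73.8 CPM). The genes were chosen by the test on these same samples, so this order was nearly fixed in advance.

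The Mki67+ cells were further divided by their balance of S phase and G2/M genes. Within each sample, cells with at least 5 UMIs of both lists together were ordered by the share of S phase list UMIs and cut into 3 equal parts. The S phase list holds mostly genes of the entry into S phase, such as the MCM helicase genes, and includes no member. From the lowest part (G2/M-leaning) over the middle part to the highest (S-leaning), the summed histone level was 7156, 5421 and 3942 CPM in medLN 1 IL-4eGFP+ cells, 5646, 4870 and 4563 in medLN 2, 4294, 5033 and 3692 in MLN 1 and 3855, 4597 and 3151 in MLN 2. In IL-4eGFP- cells it was 9435, 6546 and 2608 CPM in medLN 1, 9899, 7954 and 4033 in medLN 2, 8973, 5147 and 2331 in MLN 1 and 6691, 11094 and 3349 in MLN 2. In all 8 samples of the second run the S-leaning part was the lowest, and in 3 of them the middle part was the highest. In the first run the values were 4918, 4659 and 1385 CPM in Lung 1, 4992, 8083 and 4867 in Lung 2, 6856, 4547 and 5744 in MLN 1 and 6350, 9354 and 8741 in MLN 2, with no common order. Hist1h2ap held 44.4% of the histone UMIs of that run over all cells, so these sums lean on 1 gene. The parts held 16 to 60 cells in the first run, and 83 to 105 in IL-4eGFP+ and 10 to 17 in IL-4eGFP- samples of the second. The highest single Mki67+ cell of MLN 1 IL-4eGFP- held 585 histone UMIs, where its lowest, middle and highest parts held 731, 643 and 253. In MLN 2 IL-4eGFP- that cell held 460, where the parts held 700, 1652 and 389. What single cells added to these levels was not tested.

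In the second run 31 of 35 members tested were lower in S-leaning than in G2/M-leaning cells and none was higher (edgeR, sample as a block), where 26.0% of 5375 genes were called higher and 23.5% lower. The median log2 difference was -0.82. The largest were Hist1h2bg (-1.42, SE 0.23), Hist2h3b (-1.36, SE 0.18), Hist1h3f (-1.14), Hist1h3b (-1.09), Hist2h2bb (-1.04), Hist1h1c (-0.97), Hist1h3e (-0.95), Hist1h2bk (-0.94), Hist1h4d (-0.91) and Hist1h2ab (-0.90). Hist1h2bg rested partly on 1 value, 417 CPM in the G2/M-leaning part of MLN 1 IL-4eGFP-, where the other G2/M-leaning parts of the run lay between 19.1 and 77.8 CPM. Hist1h4d was lower in the S-leaning part of every sample, for example 43.3 against 113 CPM in medLN 1 IL-4eGFP+ and 77.5 against 201 CPM in MLN 2 IL-4eGFP-. The count fell to between 12 and 16 without any 1 of the 4 IL-4eGFP+ samples (12 without medLN 1, 16 without medLN 2, 15 without MLN 1 and 16 without MLN 2).

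In the first run 5 of 30 members were lower in S-leaning cells and 1 was higher (edgeR), against 8.55% and 9.32% of 5052 genes. The lower ones were Hist2h2bb (-2.18, SE 0.31), Hist1h4d (-1.63, SE 0.23), Hist1h3b (-1.25), Hist1h2bj (-0.79) and Hist1h2ae (-0.58), and the higher one was the H3 gene Hist1h3i (1.19, SE 0.38). Hist1h4d was at 28.1 against 159 CPM in Lung 1, about 60 against 167 in Lung 2, 43.5 against 112 in MLN 1 and 44.5 against 68.1 in MLN 2, lower in all 4 samples. Hist1h3i was higher in Lung 2 and MLN 1 and lower in Lung 1 and MLN 2. The count was 11 without Lung 2, 2 without MLN 1, 13 without MLN 2 and 2 by DESeq2.

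**Figure D5:**
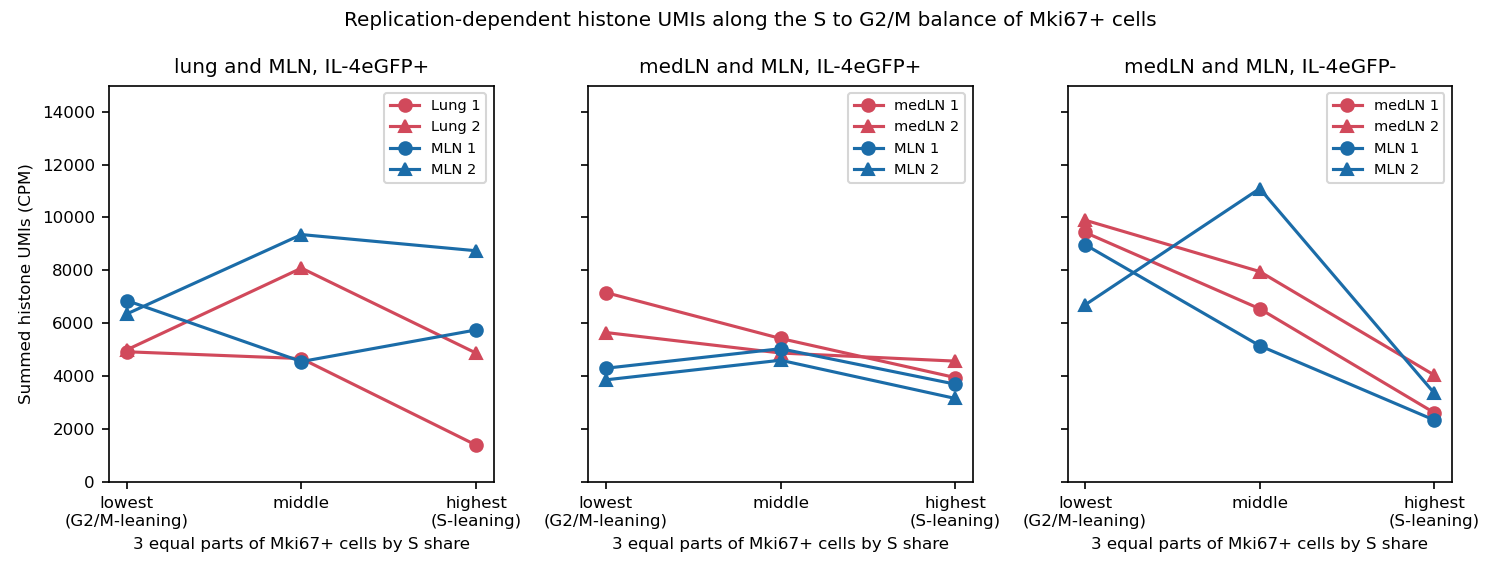
Summed histone UMIs in CPM in the lowest, middle and highest part of the Mki67+ cells of each sample by their S phase share, with 1 line per sample. In the second run the S-leaning part is the lowest point of all 8 lines, and the first run shows no common order. Each part of an IL-4eGFP- sample holds only 10 to 17 cells.

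Genes that act on histone mRNA and histone proteins were measured in the same sums. Slbp, which encodes the stem-loop binding protein, was higher in Mki67+ than in Mki67- cells by 1.63 (SE 0.10) on the log2 scale in the first run and 2.21 (SE 0.13) in the second. Casp8ap2, which encodes the processing factor FLASH, was higher by 0.97 and 0.76, and Npat, the coactivator of histone transcription, by 0.57 and 0.47. Of 11 processing factors tested, 7 were higher in the first run and 8 in the second, and none was lower. Of the histone chaperones, 9 of 11 and 10 of 12 were higher and 0 and 1 were lower. Between S-leaning and G2/M-leaning cells, Slbp was higher in S-leaning cells by 1.81 in both runs (SE 0.13 and 0.09) and Casp8ap2 by 1.13 and 1.70, opposite in sign to most members.

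The replication-independent histone variants, most of whose mRNAs are polyadenylated, are mostly not tied to S phase, although H2afx is known to make a stem-loop transcript too. Of 9 tested, 7 were higher in Mki67+ cells in the first run, and 8 were higher and 1 lower in the second. H2afx was higher by 2.29 and 2.79, H2afz by 1.96 and 2.56, H1f0 by 0.80 and 1.80, and H3f3b by 0.16 (adjusted p = 0.099, edgeR) and 0.51 on the log2 scale. Between S-leaning and G2/M-leaning cells, 4 of 9 variants were lower in S-leaning cells in the first run and 5 of 9 in the second, and none was higher. H2afx had log2 differences of -1.85 and -2.01 there, while H2afz did not pass (0.09 and -0.06).

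In all cells Slbp was higher in IL-4eGFP+ than in IL-4eGFP- cells by 1.34, H1f0 by 2.31, H2afz by 1.16 and H2afx by 1.19. Within Mki67+ cells none of the 39 S phase list genes passed between the gates (edgeR), while 3 of 50 G2/M list genes were higher and 1 lower, and none of 11 processing factors passed. Of the 9 variants, 3 were lower in IL-4eGFP+ Mki67+ cells, namely H2afv (-0.79), H2afx (-0.47) and H3f3a (-0.25). Between lung and MLN Mki67+ cells, none of the 11 processing factors and 10 chaperones passed and 1 of 9 variants did, H3f3b, which was higher in lung by 0.42. Of the cell cycle lists, 2 of 39 S phase genes were higher in lung and 1 of 50 G2/M genes was lower. At an unadjusted p under 0.05, 3 S phase genes and 1 processing factor differed between the gates, and 6 S phase genes, 11 G2/M genes, 1 variant and no processing factor or chaperone between lung and MLN.

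The Mki67 effect itself was compared between lung and MLN with an interaction term. It was smaller in lung for 3 of 53 members and larger for none (edgeR, 1.06% of 9686 genes called lower and 0.268% higher). Cell cycle genes moved the same way, so this was not particular to the members. Of 39 S phase genes, 4 had a smaller effect in lung and 0 a larger one, and of 50 G2/M genes 5 and 1. The median log2 difference was -0.32 for S phase genes, -0.50 for G2/M genes, -0.65 for the members and -0.09 over all genes. By edgeR, the 3 members were Hist1h2ak (-3.31, SE 0.67, adjusted p = 0.0020), Hist1h1b (-1.63, SE 0.43, adjusted p = 0.038) and Hist2h2aa1 (-1.50, SE 0.30, adjusted p = 0.0013). Hist2h2aa1 was at 29.6 and 57.9 CPM in the Mki67+ cells of Lung 1 and Lung 2 and at 21.6 and 25.9 CPM in their Mki67- cells, while in MLN 1 and MLN 2 it was at 35.0 and 54.5 CPM against 8.26 and 13.2 CPM. The Mki67- levels of lung lay above those of MLN, and the Mki67+ levels overlapped. Hist1h2ak had 0.599 and 5.18 CPM in the Mki67- cells of Lung 1 and Lung 2 and 0.899 and 0.778 CPM in those of MLN 1 and MLN 2, so Lung 2 stood above the rest. Hist1h1b had 18 and 16 UMIs in the Mki67- cells of Lung 1 and Lung 2 and 38 and 1 in those of MLN 1 and MLN 2. Its effect in MLN 2 therefore rested on 1 UMI. Of the variants, H2afz also had a smaller effect in lung (-1.26, SE 0.13).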

How the data were processed

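Single CD4+ cells were profiled by 5′ droplet RNA sequencing primed on poly(A). The authors made the deposited UMI counts per gene and cell with Cell Ranger, for which the submitters' processing notes and methods name versions 2.1.1, 3.0.1 and 6.1.2 on an mm10 reference. Reads were not realigned here, and how reads shared by near-identical histone genes were assigned follows from that pipeline. The study's quality limits were applied: a cell needed more than 500 UMIs from more than 500 genes, a mitochondrial share below 7% and a ratio of log genes to log UMIs above 0.8. Lung and MLN cells of the first run also needed a productive TCR alpha and beta contig, and cells of the second run were hashtag singlets (HTODemux, Seurat 5.3.0), so no further doublet caller was run. Gate was read from the barcode suffix.

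UMI counts were summed per gene and sample, over all cells, Mki67+ cells and Mki67- cells, and tested with edgeR 4.0.16 (quasi-likelihood, filterByExpr, TMM, R 4.3.3) with TCR genes left out and Benjamini-Hochberg adjustment over all genes at 0.05. The standard error is the log2 difference divided by the square root of F. DESeq2 1.42.0, other filters, blocks and left-out samples were alternatives, and leaving out cells with B cell or myeloid marker UMIs was added after seeing the data. The tests were tested on simulated data, where 200 of 200 changed genes were recovered in each of 11 comparisons. Between 4 and 46 unchanged genes were called. The 46 were for medLN against MLN in all IL-4eGFP+ cells (11265 genes). False calls were a larger share of the calls than 0.05 there and in most other comparisons. The share was not larger for lung against MLN in Mki67+ cells (4 false calls) or the gates in Mki67+ cells (8). Nor was it for S-leaning against G2/M-leaning cells of the second run (10). The planted changes were larger than many member differences given above and spared the genes of lowest expression. Recovery of smaller differences was not tested. Shares of cells cover counting error only. The named genes were the 15 members with most UMIs, in each comparison up to 10 called members in each direction, and Slbp, Npat, Casp8ap2, H2afz, H2afx, H3f3b, H1f0, Mki67, Pcna and Top2a, with examples chosen after their values were seen where others are named. Members and lists were chosen with earlier results of these data known.

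The hashtags name the mouse in the second run. For lung and MLN of the first run the labels only number the libraries of 2 mice, and that equal numbers mark the same mouse was taken and is not stated. The deviations of same-numbered samples from the group means correlated with r = 0.0393 (lung and MLN), 0.235 (medLN and MLN IL-4eGFP+) and 0.117 (IL-4eGFP-) over genes in all cells, and with 0.0381, -0.0400 and -0.00545 in Mki67+ cells.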

Additional observations from a re-analysis of the deposited data

Results flagged for a closer look

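The effect of Mki67 status differed between lung and MLN by the interaction test for 3 members. The log2 difference of the effects, lung minus MLN, was -3.31 for Hist1h2ak, -1.63 for Hist1h1b and -1.50 for Hist2h2aa1. Alternatives were not run for these interaction tests. Each effect was above 0 in the 2 organs together, and the Mki67- sums of Hist1h2ak and Hist1h1b were small, below 8 CPM in all 4 samples.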

How the results depend on the processing

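The direction of all named member differences that passed the test was kept under the alternatives run, where the member was still tested. The exception was Hist1h2ak between lung and MLN in all cells, which was 0.040 without the TCR criterion. Named differences that did not pass were not followed through the alternatives. Between lung and MLN in all cells the number of members called was 3 by DESeq2 and 4 to 14 with 1 sample left out. In Mki67+ cells it was 4 by DESeq2, 19 with no filter on low counts, 20 with mouse as a replicate block and 7 to 24 with 1 sample left out. Between medLN and MLN it was 1 with no filter and 0 to 4 with 1 sample left out in IL-4eGFP+ cells, 3 with the replicate block and 1 to 8 with 1 sample left out in IL-4eGFP- cells, and 12 with no filter, 8 with the replicate block and 1 to 9 with 1 sample left out in IL-4eGFP+ Mki67+ cells. Between S-leaning and G2/M-leaning cells of the first run it was 2 by DESeq2, 15 with no filter, 2 with no replicate block, 2 with at least 2 Mki67 UMIs and 2 to 13 with 1 sample left out, and in the second run 12 to 38 with 1 sample left out. The cause of these moves was not tested. With 1 sample left out the counts were 43 to 46 and 18 to 29 between the gates (all and Mki67+ cells), and 45 to 49 and 53 to 54 between Mki67+ and Mki67- cells of the first and second run. The replicate block also removed the call of Hist1h2bl between the gates in all cells (adjusted p = 0.064, edgeR) and no other call of a named member. Precision is limited by 2 mice a group and, for IL-4eGFP- Mki67+ cells, by 31 to 52 cells a sample. It is also limited by the 59 and 50 Mki67+ cells of Lung 2 and MLN 2 in the first run.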
